A study of Mus musculus with 4 samples.

Results

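Iron handling was examined in melanoma tumor repopulating cells (TRCs) through 10 genes that were chosen by symbol for their roles in iron uptake (*Tfrc*, *Slc11a2* and *Steap3*), storage (*Fth1*, *Ftl1* and *Ncoa4*), export (*Slc40a1*), iron sensing (*Aco1* and *Ireb2*) and heme breakdown (*Hmox1*). All 10 were found among the 39179 genes listed for each library, and all 10 passed the filter on low counts that left 11483 genes for testing. The mRNA came from B16F1 cells, a mouse melanoma line, either as parental B16F1 control cells (2 libraries, replicates 1 and 3) or as TRCs (2 libraries, replicates 1 and 3), which are the cells of spheroids grown from single B16F1 cells in soft 3D fibrin gels. The labels name no gene edit and no drug in either group. The groups therefore differed in selection by the gel and in culture format at the same time, and these cannot be told apart.

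Cells take up iron mainly as transferrin bound to the transferrin receptor, reduce it in the endosome with a STEAP metalloreductase and move it to the cytosol through the transporter encoded by *Slc11a2*. Iron that is not used is stored in ferritin, a shell of heavy and light chains, which is returned to the cytosol when NCOA4 carries ferritin to the lysosome, while ferroportin, encoded by *Slc40a1*, exports it. Iron regulatory proteins, encoded by *Aco1* and *Ireb2*, bind a short hairpin, the iron-responsive element (IRE), when iron is scarce. Bound in a 5′ untranslated region (UTR) they block translation, and bound in the 3′ UTR of *Tfrc* they protect the mRNA from decay, so that for ferritin an mRNA count does not report the protein.

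The IRE hairpins of the members are shown because they define which of these mRNAs the iron regulatory proteins are known to read. UTRs of annotated coding transcripts were searched in the sense direction for CNNNNNCAGTGN, which is an unpaired C, 5 stem bases and the 6-base loop, and the pairing of those 5 bases with the 5 bases after the loop was counted with G-T pairs allowed. The 8 sites of the members with at least 4 of 5 stem pairs are given 5′ to 3′ with the loop in capitals, and the first 7 listed have all 5 pairs.
*Fth1* 5′ UTR, chr19:9982732-9982760, plus strand: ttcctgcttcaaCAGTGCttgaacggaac
*Ftl1* 5′ UTR, chr7:45459779-45459807, minus strand: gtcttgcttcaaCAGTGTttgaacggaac
*Slc40a1* 5′ UTR, chr1:45925465-45925493, minus strand: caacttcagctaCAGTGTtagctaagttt
*Tfrc* 3′ UTR, chr16:32631219-32631247, plus strand: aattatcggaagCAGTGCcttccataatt
*Tfrc* 3′ UTR, chr16:32631598-32631626, plus strand: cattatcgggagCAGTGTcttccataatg
*Tfrc* 3′ UTR, chr16:32631663-32631691, plus strand: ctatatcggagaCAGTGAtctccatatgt
*Tfrc* 3′ UTR, chr16:32631710-32631738, plus strand: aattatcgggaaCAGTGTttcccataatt
*Slc11a2* 3′ UTR, chr15:100395153-100395181, minus strand: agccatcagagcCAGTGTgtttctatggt

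The build is GRCm38 and the sequences come from the GENCODE M21 transcripts. The motif alone was common, at 12.8% of 20062 genes with a 5′ UTR of at least 30 bases and 36.2% of 20848 genes with such a 3′ UTR. With all 5 stem pairs it was present in 0.150% and 0.609% of these genes, respectively. Thus 4 members, *Fth1*, *Ftl1*, *Slc40a1* and *Tfrc*, carried a fully paired site, with 4 sites in *Tfrc*. A match is a description of the letters and was not tested as a binding site.

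In total, between 35948295 and 43511554 counts fell on genes per library, and at these depths 3 counts correspond to between 0.0689 and 0.0835 counts per 1000000 (CPM), for counting error only. Melanocyte markers were present in each library, with a summed level of the 7 markers from 15694 to 18894 CPM in parental cells and from 23942 to 26640 CPM in TRCs. All 7 had a positive log2 fold change, from 0.12 to 1.14 with a median of 0.41. Of the 7, 1 was called at FDR under 0.05, against 15.9% of all genes tested. It was *Dct*, a melanin synthesis enzyme (log2 fold change 1.08, FDR = 0.000307), a call that edgeR's quasi-likelihood test did not make. The globin genes *Hba-a1*, *Hba-a2*, *Hbb-bs* and *Hbb-bt* had 0 counts in each library, and the 7 erythroid markers summed to at most 0.576 CPM, mostly from *Klf1*. The 7 leukocyte markers summed to between 1.71 and 5.01 CPM, of which *Cd68* was the most abundant, with *Ptprc* and *Adgre1* at 0 counts, and the 5 endothelial markers summed to at most 0.198 CPM. The 6 fibroblast markers summed to between 9.82 and 11.3 CPM in parental cells and between 3.10 and 5.67 CPM in TRCs, and *Col1a2* fell among them (log2 fold change −2.52, FDR = 4.15e-06). TRC replicate 3 stood apart in alignments that were not unique, at 25.2% against 18.3% in TRC replicate 1 and 15.2% and 17.1% in parental replicates 1 and 3.

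Of the 10 members, 1 changed in TRCs at FDR under 0.05, *Steap3*, which fell, and 9 did not pass the test. In edgeR's exact test across all genes 15.9% of genes were called, 8.81% higher and 7.05% lower in TRCs, so 1 of 10 is a share near that background. The same single member was called in edgeR's quasi-likelihood test, which called 9.18% of all genes, in that test with a replicate block (6.84%) and in DESeq2 (17.7%). Of the members, 4 had a positive and 6 a negative log2 fold change, against 5773 and 5710 of all 11483 genes tested. The median was −0.14 against 0.0034 over all genes tested. The FDR of the other 9 members lay between 0.245 and 0.842. For 7 of these 9 the 95% interval of the log2 fold change lay within 1 on either side of 0, the exceptions being *Tfrc* and *Hmox1*. In these bulk libraries, fewer cells with an mRNA and less mRNA per cell cannot be told apart, and the labels do not say whether the libraries came from separate cultures, so p-values measure only the spread between them.

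**Figure D1:**
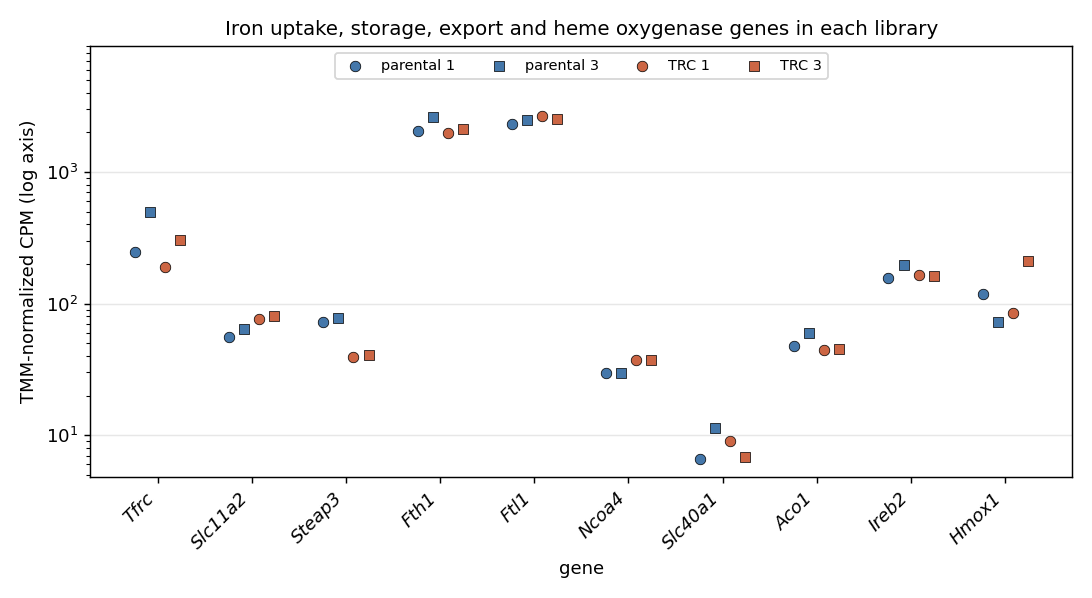
TMM-normalized CPM (log axis) of the 10 genes in each of the 4 libraries, with parental cells in blue, TRCs in orange, circles for replicate 1 and squares for replicate 3. *Steap3* lies at 72.9 and 78.1 CPM in parental cells and at 39.6 and 40.7 CPM in TRCs, while the libraries of *Tfrc* and *Hmox1* spread widely within each group.

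*Steap3* (ENSMUSG00000026389), which spans 120190757 to 120272705 of chromosome 1 (minus strand), encodes a metalloreductase of endosomes that turns ferric into ferrous iron. Its level was 72.9 and 78.1 CPM in parental replicates 1 and 3 and 39.6 and 40.7 CPM in TRC replicates 1 and 3. Both TRC libraries were thus below both parental libraries, and the libraries of a group differed little. Parental cells averaged 75.5 ± 3.67 CPM (SD, n = 2), and TRCs averaged 40.1 ± 0.790 CPM (SD, n = 2), which was 1.88-fold lower. The log2 fold change was −0.91, with an SE of 0.20 from DESeq2 and an FDR of 0.000947 in edgeR's exact test. The call was kept under each alternative filter, scaling and test and without any 1 of the 4 libraries, and its highest FDR was 0.0499, without TRC replicate 1.

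*Tfrc* (ENSMUSG00000022797), on the plus strand of chromosome 16 from 32608920 to 32632794, encodes the transferrin receptor, the main entry for iron and the mRNA with the 4 fully paired hairpins listed. It was measured at 245 and 500.0 CPM in parental replicates 1 and 3 and at 189 and 307 CPM in TRC replicates 1 and 3. TRC replicate 3 lay between the parental libraries, so the groups overlapped, and replicate 3 was the higher library in both groups, by 2.04-fold in parental cells and 1.62-fold in TRCs. The log2 fold change was −0.59 (95% interval −1.27 to 0.10, FDR = 0.246), and the difference between groups was not larger than the spread within them. In edgeR's quasi-likelihood test with a replicate block the log2 fold change was −0.54 (FDR = 0.104), which did not pass either. The value in the exact test depended on which library was left out. Without parental replicate 1 the log2 fold change was −1.01 and without parental replicate 3 it was 0.017. Without TRC replicate 1 the log2 fold change was −0.29 and without TRC replicate 3 it was −0.99.

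*Slc11a2* (ENSMUSG00000023030), which spans 100387898 to 100425072 of chromosome 15 (minus strand), encodes the divalent metal transporter that passes endosomal iron to the cytosol. It had 55.8 and 64.6 CPM in parental replicates 1 and 3 and 76.8 and 80.8 CPM in TRC replicates 1 and 3. Both TRC libraries were above both parental libraries, but the log2 fold change of 0.39 (95% interval −0.023 to 0.80, FDR = 0.245) did not pass the test. The counts are per gene, so transcripts of *Slc11a2* with and without the hairpin in the 3′ UTR were not separated.

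The ferritin chains were among the most abundant mRNAs, and neither passed the test. *Fth1* (ENSMUSG00000024661, chromosome 19 from 9980598 to 9985098, plus strand) encodes the heavy chain, which oxidizes iron, and had 2047 and 2638 CPM in parental replicates 1 and 3 and 1980.3 and 2106 CPM in TRC replicates 1 and 3. *Ftl1* (ENSMUSG00000050708, chromosome 7 from 45457944 to 45459884, minus strand) encodes the light chain, which helps form the iron core, and had 2306 and 2497 CPM in parental cells and 2685 and 2520 CPM in TRCs, in the same order. The groups overlapped for *Fth1* and did not for *Ftl1*, where the lowest TRC library was just above the highest parental library. The log2 fold changes were −0.20 for *Fth1* (95% interval −0.61 to 0.22, FDR = 0.643) and 0.12 for *Ftl1* (95% interval −0.24 to 0.48, FDR = 0.794). Groups that did not overlap were found for 5 of the 10 members, 3 with both TRC libraries above and 2 with both below, against 60.6% of all genes tested (30.2% above and 30.4% below), so the share is near the background.

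Ferritin has copies in the genome that can take or cost reads. Among annotated transcripts, 13 other genes matched *Ftl1* at 95% identity or more over at least 100 bases, of which 11 are in the count files, and 1 gene matched *Fth1*. The counts on the copies of *Ftl1* came to between 0.126% and 0.166% of all counts on the gene and its copies per library, and those on the copy of *Fth1* to at most 0.0088%. Adding them left the log2 fold changes at −0.20 and 0.12. Reads that matched several copies equally were not assigned to a gene, and the share of such alignments was higher in TRCs, at 18.3% and 25.2%, than in parental cells, at 15.2% and 17.1%. The part of this in the ferritin values was not tested.

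*Ncoa4* (ENSMUSG00000056234), on the plus strand of chromosome 14 from 32159865 to 32179855, encodes the receptor that delivers ferritin for breakdown in lysosomes. Its level was 29.7 and 29.5 CPM in parental replicates 1 and 3 and 37.6 and 37.2 CPM in TRC replicates 1 and 3, so the libraries of a group were close to each other. The groups did not overlap, and the log2 fold change was 0.34 (95% interval −0.089 to 0.76, FDR = 0.379), which did not pass the test, in which the spread of each gene is estimated together with that of other genes. A processed pseudogene, *Gm6768*, was 99.9% identical to *Ncoa4* over 1878 bases, and reads that matched both equally were not assigned to *Ncoa4*. The counts on *Gm6768* came to between 0.676% and 1.08% of all counts on the gene and its copy per library. The part of unassigned reads in the *Ncoa4* values was not tested.

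*Slc40a1* (ENSMUSG00000025993), which spans 45908068 to 45926523 of chromosome 1 (minus strand), encodes ferroportin, the known exporter of iron from cells. It was the least abundant member, with 6.56 and 11.3 CPM in parental replicates 1 and 3 and 9.01 and 6.82 CPM in TRC replicates 1 and 3. The TRC libraries lay within the range of the parental libraries. The log2 fold change was −0.17 (95% interval −0.93 to 0.60, FDR = 0.842), and its sign depended on which library was left out, with 0.27 without parental replicate 3 and −0.51 without parental replicate 1.

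Neither gene of iron sensing passed the test. *Aco1* (ENSMUSG00000028405, chromosome 4 from 40143081 to 40198338, plus strand), whose protein is an aconitase when it holds an iron-sulfur cluster and binds RNA when it does not, had 47.9 and 59.3 CPM in parental replicates 1 and 3 and 44.3 and 45.5 CPM in TRC replicates 1 and 3. *Ireb2* (ENSMUSG00000032293, chromosome 9 from 54863789 to 54912530, plus strand), whose protein is degraded when iron is plentiful, had 158 and 196 CPM in parental cells and 164 and 163 CPM in TRCs. The TRC libraries of *Aco1* were below both parental libraries, whereas those of *Ireb2* lay between the parental libraries. Their log2 fold changes were −0.25 (95% interval −0.70 to 0.19, FDR = 0.513) and −0.11 (95% interval −0.52 to 0.30, FDR = 0.809).

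*Hmox1* (ENSMUSG00000005413), on the plus strand of chromosome 8 from 75093621 to 75100589, encodes the inducible heme oxygenase, which opens heme and frees its iron. It had 118 and 71.9 CPM in parental replicates 1 and 3 and 85.1 and 212 CPM in TRC replicates 1 and 3. TRC replicate 1 lay between the parental libraries and TRC replicate 3 was 2.49-fold above TRC replicate 1, so the log2 fold change of 0.64 (95% interval −0.12 to 1.40, FDR = 0.257) was not larger than the spread. TRC replicate 3 is also the library with the highest share of alignments that were not unique, and the part of this in the value was not tested. Without TRC replicate 1 the log2 fold change was 1.13 (FDR = 0.0179 in edgeR's exact test), and without TRC replicate 3 it was −0.17 (FDR = 0.865). The constitutive enzyme *Hmox2* had 46.4 and 57.5 CPM in parental cells and 58.2 and 62.6 CPM in TRCs, with an FDR of 0.587. *Hmox2* shares 892 of its 2217 exon bases with *Cdip1* on the opposite strand, and although the library kit was stranded, the strand setting of the count is not given in the sources used here.

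**Figure D2:**
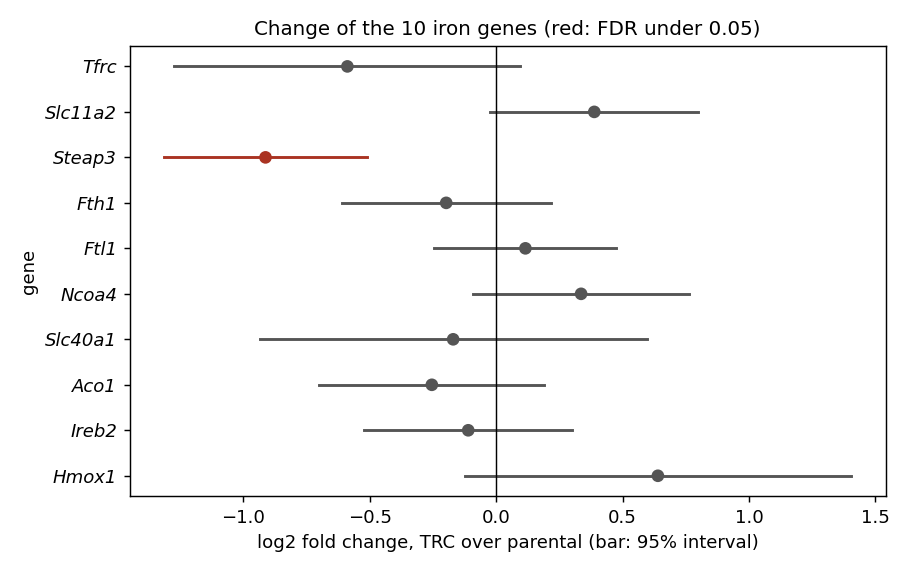
Log2 fold change of each of the 10 genes in TRCs over parental cells (points) with its 95% interval (bars), in red where FDR was under 0.05. The interval of *Steap3*, from −1.31 to −0.51, lies below 0, and the intervals of the other 9 genes include 0, with *Tfrc* and *Hmox1* among the widest.

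Levels of different genes were compared as CPM per kilobase of annotated exons. *Ftl1* was the highest member, at 1721 to 2004 CPM per kilobase over the 4 libraries, and ranked 12 among 11403 genes, followed by *Fth1*, at 571 to 760 CPM per kilobase and rank 41. *Hmox1* (41.1 to 121 CPM per kilobase) and *Tfrc* (30.5 to 80.8) overlapped in their ranges and could not be ordered. *Ireb2* came next, at 16.7 to 20.7 CPM per kilobase. *Steap3* (6.92 to 13.7), *Slc11a2* (8.79 to 12.7) and *Aco1* (9.86 to 13.2) overlapped, and the lowest levels were those of *Ncoa4* (3.15 to 4.01) and *Slc40a1* (0.729 to 1.25 CPM per kilobase). The ratio of *Fth1* to *Ftl1* on this scale was 0.343 and 0.408 in the parental libraries (replicates 1 and 3) and 0.285 and 0.323 in the TRC libraries, so the light chain mRNA was the more abundant one in each library. With the length of the longest principal transcript, 1494 and 968 bases, in place of all annotated exons, these ratios were 0.575, 0.684, 0.478 and 0.542. On that scale *Slc11a2*, at 18.5 to 26.7 CPM per kilobase, stood above *Aco1* (11.6 to 15.5) and *Steap3* (7.67 to 15.1), and *Ncoa4* (7.25 to 9.24) overlapped with *Steap3*. The mRNA of *Tfrc* exceeded that of *Slc40a1* per kilobase by between 30.5-fold and 65.5-fold, or by between 14.4-fold and 31.0-fold with the principal transcripts, so the uptake receptor was above the exporter in each library.

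The wider pathway was read from lists of 83 genes of iron and heme handling, of which 70 were tested and 10 had 0 counts in all 4 libraries. In total, 9 of the 70 (12.9%) changed at FDR under 0.05, against 15.9% of all genes tested, with 2 that rose against a background of 8.81% and 7 that fell against 7.05%. The log2 fold change was positive for 25 and negative for 45 of the 70 genes, against 5773 and 5710 of all 11483 genes tested. The median was −0.12 against 0.0034 over all genes. The 23 genes of mitochondrial iron and iron-sulfur cluster assembly made up 6 of the 25 and 17 of the 45. The 7 genes that fell were *Steap1*, *Steap2*, *Steap3*, *Flvcr1*, *Blvrb*, *Cp* and *Ndor1*, and the 2 that rose were *Slc22a17* and *Ppox*. With a filter of 1 CPM in at least 3 libraries, which removed *Slc22a17*, 7 of 69 genes changed, of which 1 rose and 6 fell.

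**Figure D3:**
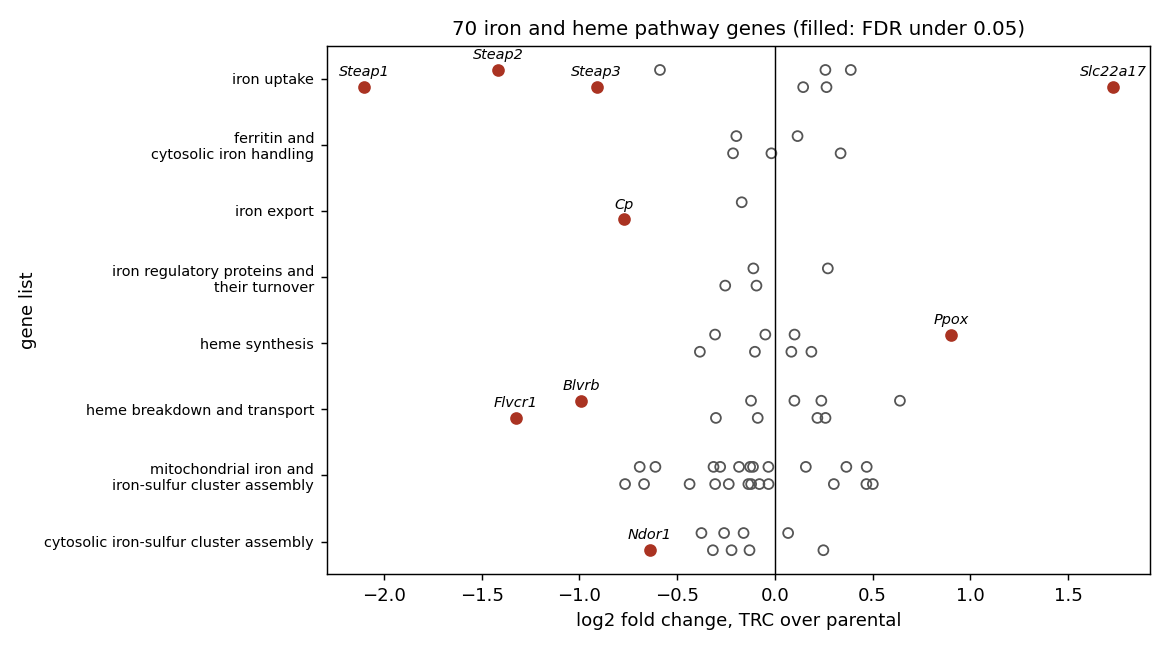
Log2 fold change in TRCs over parental cells of the 70 tested genes of iron and heme handling, 1 point per gene, by list, with filled and named points for FDR under 0.05. The 3 tested STEAP genes lie between −2.10 and −0.91. No point is filled in the ferritin (5 tested), iron sensing (4 tested) and mitochondrial (23 tested) lists, against 15.9% of all genes tested. With 5 and 4 genes, a count of 0 cannot be told from that share.

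In the uptake list, 3 of 9 tested genes fell, 1 rose and 5 did not pass the test, and the 3 that fell were STEAP genes. Over all genes tested, 7.05% fell and 8.81% rose at the same threshold. The list was chosen with earlier results of these data known. *Steap1* (ENSMUSG00000015652), which lies beside *Steap2* on chromosome 5, from 5736317 to 5749326, had 8.74 and 7.05 CPM in parental replicates 1 and 3 and 1.99 and 1.68 CPM in TRC replicates 1 and 3, a 4.29-fold decrease (log2 fold change −2.10, SE 0.40, FDR = 7.71e-05). *Steap2* (ENSMUSG00000015653, chromosome 5 from 5664829 to 5694578), which encodes a metalloreductase like that of *Steap3*, had 49.6 and 28.4 CPM in parental cells and 14.6 and 14.6 CPM in TRCs, a 2.67-fold decrease (log2 fold change −1.42, SE 0.31, FDR = 0.000214). For all 3 of these genes both TRC libraries were below both parental libraries, as for 30.4% of all genes tested. The calls were kept in each alternative, with the FDR at most 0.0325 for *Steap1* and 0.0423 for *Steap2*. *Steap4* had 0 counts in each library. *Slc22a17*, which encodes a receptor for the iron carrier lipocalin 2, had 0.382 and 0.396 CPM in parental cells and 1.27 and 1.32 CPM in TRCs (log2 fold change 1.73, SE 0.83, FDR = 0.0182). It passed the filter on low counts only through the TRCs, so its call does not stand as support for a rise. This call rests on 14 to 55 counts per library, and its adjusted p was 0.133 in DESeq2, 0.0648 in edgeR's quasi-likelihood test and between 0.0907 and 0.125 in edgeR's exact test without any 1 of the 4 libraries. The second transferrin receptor, *Tfr2*, was below the filter, with 1 and 2 counts in parental cells and 11 and 11 counts in TRCs.

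**Figure D4:**
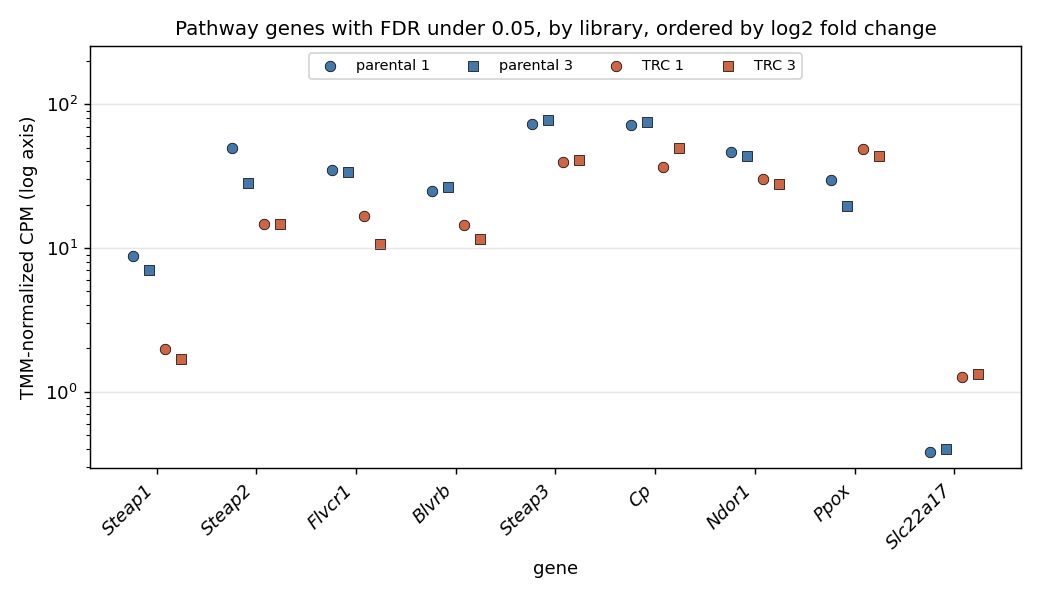
TMM-normalized CPM (log axis) in each library of the 9 pathway genes with FDR under 0.05, ordered by log2 fold change from the strongest decrease, with symbols as in the plot of the 10 genes. The groups do not overlap for any of the 9, against 60.6% of all genes tested without overlap. This adds no support to the calls, as the 9 were chosen by FDR in these same libraries. *Slc22a17* is the only one of the 9 below 2 CPM in all 4 libraries.

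Among genes of iron export, *Cp*, which encodes ceruloplasmin, the ferroxidase that works with ferroportin, fell from 71.6 and 75.5 CPM in parental replicates 1 and 3 to 36.5 and 49.6 CPM in TRC replicates 1 and 3. The log2 fold change was −0.77 (SE 0.24, FDR = 0.0129), with an FDR of 0.279 without TRC replicate 1 and 0.0893 without parental replicate 3. The related ferroxidase genes *Heph* and *Hephl1* had 0 counts, and *Hamp*, which encodes the hormone hepcidin, had at most 1 count per library, under the limit of 3 counts.

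In heme breakdown and transport, 2 of 10 tested genes fell, against 7.05% of all genes tested, and 8 did not pass the test. *Flvcr1*, known as a heme exporter of the plasma membrane, had 34.9 and 33.9 CPM in parental replicates 1 and 3 and 16.8 and 10.6 CPM in TRC replicates 1 and 3. Its log2 fold change was −1.33 (SE 0.29, FDR = 0.000456), and the FDR was 0.0584 without TRC replicate 3. *Blvrb*, which encodes a biliverdin reductase, had 25.1 and 26.5 CPM in parental cells and 14.4 and 11.5 CPM in TRCs (log2 fold change −0.99, SE 0.26, FDR = 0.0127). Without TRC replicate 3 its FDR was 0.218, without TRC replicate 1 it was 0.065 and without parental replicate 3 it was 0.0915. In both genes the TRC libraries were below the parental libraries, as for 30.4% of all genes tested. The other biliverdin reductase gene of the list, *Blvra*, did not pass the test (log2 fold change 0.10, FDR = 0.834).

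In heme synthesis, 1 of 8 tested genes rose, against 8.81% of all genes tested, 0 fell and 7 did not pass the test. *Ppox*, which encodes the oxidase of the step before iron is inserted, had 29.8 and 19.6 CPM in parental replicates 1 and 3 and 49.1 and 43.4 CPM in TRC replicates 1 and 3 (log2 fold change 0.90, SE 0.27, FDR = 0.0103). *Ppox* shares 791 of its 4515 exon bases with *B4galt3* on the opposite strand, whose counts were 2014 and 1275 in parental cells and 2685 and 2922 in TRCs, and the part of this in the value was not tested. Its FDR was 0.0525 in the quasi-likelihood test and between 0.06 and 0.206 without either TRC library or parental replicate 3. The erythroid gene *Alas2* had 0 counts, and the median log2 fold change of the list was 0.018.

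Genes that build and use iron-sulfur clusters mostly did not pass the test. Of 23 mitochondrial genes, 0 were called in edgeR's exact test, in the quasi-likelihood test and in DESeq2. Over all genes these tests called 15.9%, 9.18% and 17.7%, respectively. In the exact test 5 of the 23 had an unadjusted p under 0.05, against 3220 of all 11483 genes tested. The log2 fold change was negative for 17 of the 23, against 5710 of all 11483. The most abundant of them, the chaperone gene *Hspa9*, had 1348 and 819 CPM in parental replicates 1 and 3 and 456 and 817 CPM in TRC replicates 1 and 3, so the lowest parental and highest TRC library were nearly equal (log2 fold change −0.77, FDR = 0.0837). Its log2 fold change was −1.26 without TRC replicate 3 (FDR = 0.0158), −1.08 without parental replicate 3 (FDR = 0.0263), −0.42 without TRC replicate 1 (FDR = 0.584) and −0.36 without parental replicate 1 (FDR = 0.522). Of 9 cytosolic assembly genes, 1 was called in the exact test, against 15.9% of all genes tested. It was *Ndor1*, an electron donor of the pathway, with 46.9 and 43.6 CPM in parental cells and 30.1 and 28.0 CPM in TRCs (log2 fold change −0.64, SE 0.22, FDR = 0.0487). This call was lost in the quasi-likelihood test (FDR = 0.0612), with library size as the only scaling (FDR = 0.0513), with either other filter and without any 1 of the 4 libraries (FDR = 0.124 to 0.289). *Ndor1* also shares 300 of its 5835 exon bases with *Tmem203* on the opposite strand.

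The 5 members whose mRNAs are known to carry an IRE, *Tfrc*, *Slc11a2*, *Fth1*, *Ftl1* and *Slc40a1*, were read together last. Of these 5, 0 were called in edgeR's exact test, 0 in the quasi-likelihood test and 0 in DESeq2, and 0 had an unadjusted p under 0.05 in the exact test. Over all genes these tests called 15.9%, 9.18% and 17.7%, and 3220 of 11483 genes had an unadjusted p under 0.05 in the exact test. With 5 genes, a count of 0 cannot be told from these shares. Their log2 fold changes ranged from −0.59 for *Tfrc* to 0.39 for *Slc11a2*, both of which carry their hairpins in the 3′ UTR, with a median of −0.17. For *Fth1*, *Ftl1* and *Slc40a1*, which carry it in the 5′ UTR, the values lay between −0.20 and 0.12. Ferritin and ferroportin protein were not analysed here.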

How the data were processed

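Libraries of mRNA, 2 from parental cells and 2 from TRCs, were grouped by the labels. Each deposited file lists 1 library's raw counts by Ensembl gene identifier. According to the paper's methods and the submitters' processing notes, the authors used Trimmomatic 0.35 for trimming, TopHat2 2.1.0 with Bowtie2 2.2.6 for alignment to GRCm38, and htseq-count for counts of single-end reads from a stranded kit. The mode and strand setting of that count are not given in the sources used here.

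Totals that are not genes were removed first, and among them alignments that were not unique made up 15.2% to 25.2% per library. Genes with at least 1 CPM in at least 2 libraries were kept, which left 11483 genes. Following the study's methods, counts were scaled by TMM (factors 0.957 to 1.04) and compared with the exact test of edgeR 4.0.16 under R 4.3.3, with common and tagwise dispersions by edgeR's default moving average, a prior count of 0.125 and Benjamini-Hochberg adjustment over all genes (FDR under 0.05). All FDR values come from this test unless another is named. SE and 95% intervals came from DESeq2 1.42.0, with the interval centred on the edgeR value. CPM values are TMM-normalized, and SD is over n = 2.

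Symbols, positions, exons and transcripts came from GENCODE M21 (GRCm38), in which 37693 of 39179 identifiers were found. The 10 members and the gene lists were chosen with earlier results of these data known. Named genes are the members, the genes called in each list or, where a list has none, its most abundant gene. *Tfr2*, *Steap4*, *Heph*, *Hephl1*, *Hamp*, *Alas2*, *Hmox2*, *Blvra*, *Gm6768*, *B4galt3*, *Cdip1*, *Tmem203*, the globin genes, *Ptprc* and *Adgre1* were named after their values were seen. Alternatives were other filters, scalings, dispersions and tests, a replicate block, and each library left out in turn, where the lone library of a group is assumed to vary like those of the other group. No set test was run. 1 item of the wider lists is not reported here. The qPCR and microscopy measurements were not analysed here.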

Additional observations from a re-analysis of the deposited data

How the results depend on the processing

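Over all genes, 1822 were called, against 1054 in edgeR's quasi-likelihood test and 785 in that test with a replicate block, while leaving out a library at a time gave 773 to 1932. For the 10 members the count was 1 in each alternative except with single libraries left out, where it ranged from 1 to 2, with *Tfrc* added without parental replicate 1 and *Hmox1* added without TRC replicate 1. For the 70 pathway genes the count was 9, with 4 under the replicate block (*Flvcr1* and the 3 STEAP genes) and 5 to 10 with each library left out. The block uses the label numbers 1 and 3, and the labels do not say whether libraries of one number were prepared together. Across genes, the libraries of one number deviated from the means of their groups with a correlation of r = 0.027. From 2 libraries per group, this value cannot tell whether the libraries were paired. When a library at a time was left out, the log2 fold change turned sign for 4 members, none of which was called with all libraries. It ranged from −1.01 to 0.017 for *Tfrc* and from −0.26 to 0.055 for *Ireb2*, with the positive value without parental replicate 3. It ranged from −0.51 to 0.27 for *Slc40a1*, positive without parental replicate 3 and, at 0.011, without TRC replicate 3, and from −0.17 without TRC replicate 3 to 1.13 for *Hmox1*. The mean ratio of *Fth1* to *Ftl1* per kilobase was 0.340, and 0.570 with the length of the longest principal transcript, an alternative chosen after seeing the data, as was the one with dispersions shrunk toward the common value (7 pathway genes called). With 2 libraries per group, a difference that did not pass the test is limited only by its interval.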
